A study of Rattus norvegicus with 3 samples.

Results

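Germline and meiosis genes, which are largely silent outside the reproductive organs, were followed in 2 rat sarcoma lines and in mesenchymal stem cells. The 10 genes were Rec114, Rhox5, Sycp1, Sycp2, Sycp3, Dmc1, Stag3, Smc1b, Ddx4 and Mael, out of 13301 genes with a named probe. The set was chosen by the scaled intensity of their probes on these same arrays, because Rec114 and Rhox5 were among the largest increases over the stem cells in both lines. The ratios of these genes to the stem cells are therefore given as a description and are not a test of anything.

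Expression was measured with Cy3-labeled cRNA on 1 whole rat genome array of Agilent per cell type, 3 arrays in all. COS1NR is an osteosarcoma line and MFH1NR a malignant fibrous histiocytoma (MFH) line, each derived from a tumor that the carcinogen 4-HAQO had induced in an F344 rat. Both carry mutated p53. The mesenchymal stem cells (MSCs) came from femur marrow of F344 rats, were grown as plastic-adherent cells and were not sorted on surface markers. With 1 array each there is no spread between cultures, so no difference could be tested and every ratio describes these arrays.

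Meiosis begins with programmed breaks in DNA, which Rec114 helps to make and which the recombinase Dmc1 repairs against the homologous chromosome. The synaptonemal complex (Sycp1, Sycp2 and Sycp3) zips the homologs together, and a meiotic form of cohesin with Smc1b and Stag3 holds sister chromatids. Ddx4 and Mael act in germ granules, where small piRNAs are made that silence transposons, and Rhox5 is an X-linked homeobox factor of Sertoli cells, the nurse cells of the testis. Many such genes are kept off in somatic cells by DNA methylation of CpG-rich promoters and by an E2F6 and MGA/MAX repressor complex, and some are switched on in tumors as cancer-testis genes.

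Each value below is the background-subtracted intensity of a probe, in the arbitrary units of the scanner. For comparisons it was divided by the 75th percentile of its array, which stood at 589 for MSCs, 774 for COS1NR and 994 for MFH1NR. The scanner software calls a spot well above background or not, and this call reached down to 18.0 on the MSC array, 29.4 on that of COS1NR and 30.1 on that of MFH1NR. Where a gene had this call on one array of a pair and lacked it on the other, the ratio is a lower limit ("at least"), set by the lowest such intensity of the dim array. Levels of different genes are not compared, because each probe has its own brightness. The sarcoma arrays lay on 1 slide and the MSC array on another, so a difference between slides and one between cell types cannot be told apart in ratios to MSCs.

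The 10 genes divided into 5 with a signal and 5 without. Well above background were 3 of 10 genes in MSCs (Rec114, Rhox5 and Stag3), 2 in COS1NR (Rec114 and Rhox5) and 4 in MFH1NR (Rec114, Rhox5, Mael and Sycp1). Over all genes with a probe, the share was 69.7% on the MSC array, 65.7% for COS1NR and 66.6% for MFH1NR. At least 2-fold higher than in MSCs were 2 of the genes in COS1NR and 4 in MFH1NR, and 0 were at least 2-fold lower in either line. Of the 10009 genes used, those well above background on at least 1 array, 20.0% were higher by as much in COS1NR and 19.0% in MFH1NR, and 19.4% and 21.2% were lower. The latter shares are over genes with a signal, of which the 10 genes hold 5. Since the choice of genes used these ratios, nothing is read from the comparison of these shares.

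**Figure D1:**
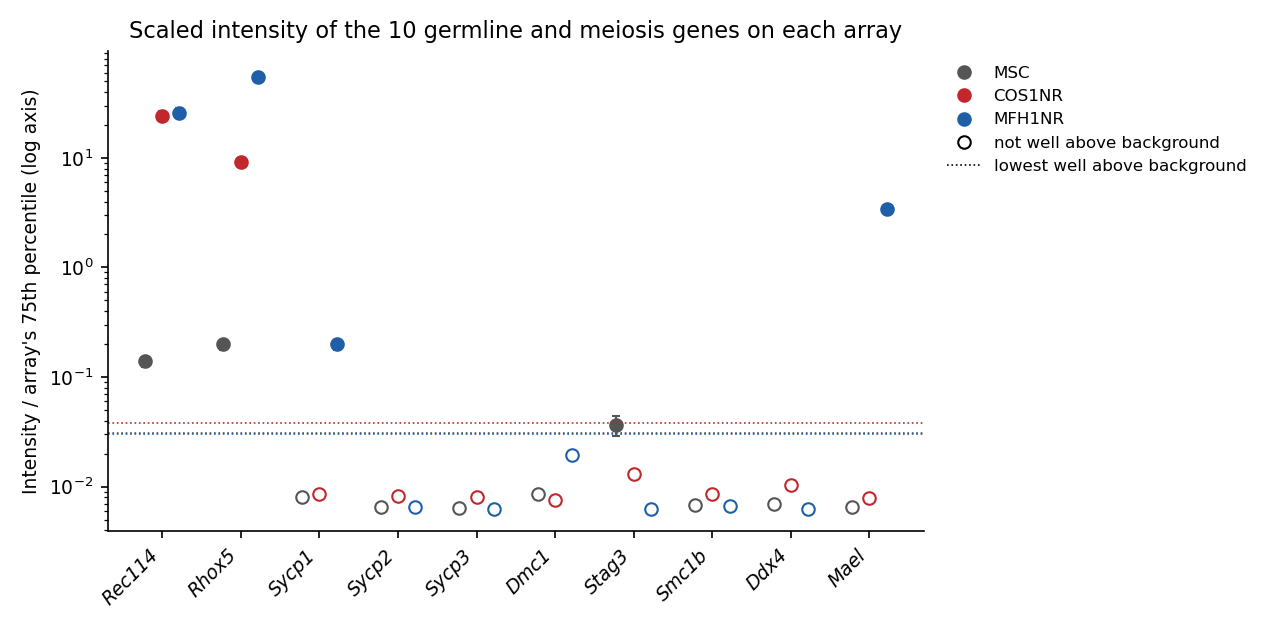
Intensity divided by the array's 75th percentile (log axis) of each of the 10 genes on the MSC, COS1NR and MFH1NR arrays. Filled points are well above background, open points are not, dotted lines mark the lowest intensity with that call on each array, and bars are the software's error of the spot. Rec114 and Rhox5 are far higher on both sarcoma arrays, Mael and Sycp1 are filled in MFH1NR only, and 5 genes are open throughout.

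Rec114, the partner of Mei4 in the machinery that makes meiotic DNA breaks, showed an intensity of 81.6 in MSCs, against 18757 in COS1NR and 25709 in MFH1NR. Both sarcoma values were far above that of MSCs, where the gene was dim but well above background. After scaling this was a 175.0-fold increase in COS1NR (log2 ratio 7.45) and a 187-fold increase in MFH1NR (log2 ratio 7.54). With other ways of processing, described below, these log2 ratios ranged from 6.53 to 7.84 and from 6.64 to 8.30. The error that the software gives for each spot, which covers neither cultures nor labeling, came to 0.21 in log2 for either ratio. Between the sarcomas the log2 ratio of MFH1NR to COS1NR was 0.09, less than the software error of 0.20, but it became 0.45 without scaling and 0.89 with scaling by spike-in probes, where the median of all genes used was 0.27 and 0.71.

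Rhox5, formerly called Pem, showed an intensity of 117 in MSCs, against 7054 in COS1NR and 54333 in MFH1NR. The order was MSCs, COS1NR, MFH1NR, with clear gaps between all of them. The increase over MSCs was 46.0-fold in COS1NR (log2 ratio 5.52) and 276-fold in MFH1NR (log2 ratio 8.11). Between the sarcomas, on their shared slide, it differed by 5.99-fold in favor of MFH1NR (log2 ratio 2.58, software error 0.20). This log2 ratio became 3.38 with scaling by spike-in probes, where the median of all genes used was 0.71.

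Among the 7931 genes well above background on all arrays, Rec114 ranked 1 and Rhox5 ranked 2 by the mean of both log2 ratios to MSCs, at 7.50 and 6.82. Taken alone, the ratio of COS1NR placed Rec114 at rank 3 and Rhox5 at rank 7, and that of MFH1NR placed them at ranks 2 and 1. In the ratio of MFH1NR to COS1NR, Rhox5 held rank 154 and Rec114 rank 3122. Genes at background in MSCs hold no rank here. Among them, the limits of Lypd10 (at least 7.63 and 8.33) exceeded both ratios of Rec114 to MSCs. Those of Nr2f1 (at least 6.24 and 8.13) exceeded both of Rhox5. Since Rec114 and Rhox5 were chosen for their increases, the ranks by ratios to MSCs restate that choice.

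The 5 genes with ratios most like those of Rec114, and the 5 most like those of Rhox5, are given here. No cut on likeness was set, so how many genes share the pattern was not counted. Likeness was taken as the distance between the pairs of log2 ratios to MSCs, over 8181 genes well above background in both sarcomas. Nearest to Rec114 was Lypd10, with log2 ratios of at least 7.63 in COS1NR and at least 8.33 in MFH1NR (distance 0.80), followed by Nr2f1, an orphan nuclear receptor, at 1.35, Rhox5 at 2.01, Afp, the fetal serum protein alpha-fetoprotein, at 2.94 and Pdia6l1 at 3.09. Nearest to Rhox5 was Nr2f1, with log2 ratios of at least 6.24 and at least 8.13 (distance 0.71), then Rec114 at 2.01, Lypd10 at 2.12, Pard6b at 2.75 and Fbxo2 at 2.77. Apart from Rec114 and Rhox5 themselves, the genes named here were not well above background in MSCs, so their ratios are lower limits and the distances rest on them.

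**Figure D2:**
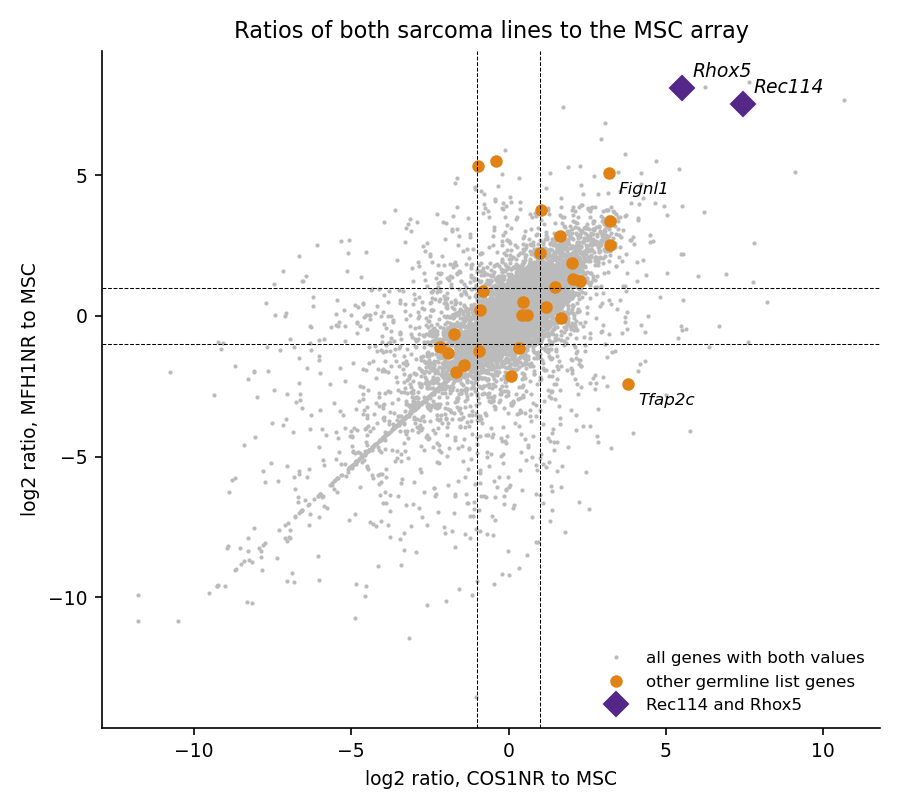
Log2 ratio of COS1NR to MSCs (horizontal) against that of MFH1NR to MSCs (vertical) for the genes with both values, with dashed lines at 2-fold. Purple diamonds are Rec114 (7.45, 7.54) and Rhox5 (5.52, 8.11), orange points are other genes of the germline lists, and limits are drawn at their value. Both axes share the MSC array, and genes at background in MSCs and one sarcoma, such as Mael and Sycp1, have no point.

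Mael (maelstrom), a germ granule protein of the piRNA pathway, was a gene of MFH1NR alone. Its intensity was 3.82 in MSCs and 6.06 in COS1NR, neither well above background, and 3394 in MFH1NR. The increase was at least 112-fold over MSCs and at least 89.9-fold over COS1NR (log2 ratios of at least 6.81 and 6.49), limits that depend on the background correction and were 5.03 and 5.36 in log2 with normexp. Sycp1, which forms the transverse filaments of the synaptonemal complex, was likewise seen in MFH1NR alone. It showed 4.73 in MSCs and 6.62 in COS1NR, again not well above background, and 198 in MFH1NR. The increase was at least 6.51-fold over MSCs and at least 5.24-fold over COS1NR (log2 ratios of at least 2.70 and 2.39), and the log2 limits were 1.19 and 1.52 with a normexp background correction. With Rhox5, these were 3 of the 5 genes with a signal, and of the 10 in all, at least 2-fold higher in MFH1NR than in COS1NR, where the share over all genes used was 11.7%. None was lower by as much, against 14.2% of all genes used. Mael and Sycp1 were among the genes used only through their signal in MFH1NR, so these counts are a description of the set. Of all genes with a probe, 2.26% were well above background in MFH1NR and on neither other array.

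The partners of Sycp1 in the synaptonemal complex gave no signal. Sycp2 and Sycp3, the axial element proteins, showed 3.85 and 3.73 in MSCs, 6.31 and 6.15 in COS1NR, and 6.47 and 6.19 in MFH1NR, none of them well above background. The recombinase Dmc1 was at 5.09 in MSCs, 5.86 in COS1NR and 19.4 in MFH1NR, also below the call on every array. The signal of Sycp1 in MFH1NR thus came without a measurable one of Sycp2, Sycp3 or Dmc1, which does not show that these were silent.

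The meiotic cohesin genes were not raised either. Smc1b was not well above background on any array, with 4.03 in MSCs, 6.61 in COS1NR and 6.55 in MFH1NR. Stag3 showed 21.6 in MSCs, close to the lowest intensity with the call, and 10.2 and 6.15 in COS1NR and MFH1NR, where it was not well above background. It was the only one of the 10 genes seen in MSCs and in neither line, and MSCs exceeded MFH1NR by at least 1.21-fold. This limit was lost without scaling and with scaling by spike-in probes. No ratio can be given for COS1NR, whose limit of detection lay above the scaled value of MSCs. Ddx4 (Vasa), the RNA helicase by which germ cells are usually recognized, was at background throughout, with 4.05 in MSCs, 7.96 in COS1NR and 6.22 in MFH1NR.

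The promoters of the genes with and without a signal are set side by side here, because CpG content and the E2F6 and MGA/MAX sites are the features through which such genes are known to be silenced. RefSeq windows from 250 bases before to 50 after the annotated start (assembly GRCr8, given 5′ to 3′ on the strand of the gene) were at hand for 9 of the 10 genes. Capitals mark TCCCGC, the core of the E2F6 site, on either strand (its reverse is GCGGGA), and CACGTG, the E-box bound by MGA/MAX. The first is Rec114, raised in both lines (chr8:68045638-68045937, minus strand), followed by Mael (chr13:81029574-81029873, minus strand) and Sycp1 (chr2:193145131-193145430, minus strand), seen in MFH1NR alone, and Ddx4 (chr2:46015902-46016201, minus strand), seen on no array.
Rec114: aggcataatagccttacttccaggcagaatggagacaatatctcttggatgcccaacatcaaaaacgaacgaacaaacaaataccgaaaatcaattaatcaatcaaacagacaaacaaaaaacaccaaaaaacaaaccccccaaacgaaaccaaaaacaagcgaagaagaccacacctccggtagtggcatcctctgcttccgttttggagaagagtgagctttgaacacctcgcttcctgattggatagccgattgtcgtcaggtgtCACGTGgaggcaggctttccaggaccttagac
Mael: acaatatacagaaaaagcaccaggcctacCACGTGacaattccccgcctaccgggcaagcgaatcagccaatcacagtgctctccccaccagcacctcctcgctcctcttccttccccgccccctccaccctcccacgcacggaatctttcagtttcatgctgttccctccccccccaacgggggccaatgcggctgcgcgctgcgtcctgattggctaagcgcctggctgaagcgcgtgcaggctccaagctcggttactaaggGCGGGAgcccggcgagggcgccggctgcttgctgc
Sycp1: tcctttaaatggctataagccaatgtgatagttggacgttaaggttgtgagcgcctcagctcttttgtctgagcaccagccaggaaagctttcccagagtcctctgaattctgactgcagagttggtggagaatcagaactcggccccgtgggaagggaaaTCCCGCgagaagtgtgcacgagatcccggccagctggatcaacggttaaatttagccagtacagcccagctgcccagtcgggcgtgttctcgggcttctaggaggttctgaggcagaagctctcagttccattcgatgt
Ddx4: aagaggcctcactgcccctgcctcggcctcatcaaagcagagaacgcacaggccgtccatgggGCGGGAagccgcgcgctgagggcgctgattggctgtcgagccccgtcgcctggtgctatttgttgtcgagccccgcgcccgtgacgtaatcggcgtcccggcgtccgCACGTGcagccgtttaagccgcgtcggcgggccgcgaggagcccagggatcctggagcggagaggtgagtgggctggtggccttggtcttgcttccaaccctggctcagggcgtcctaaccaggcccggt

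Counted from the annotated start, the E-box of Rec114 began at position 18 and that of Mael at position -221, whose E2F6-type core began at 15. Sycp1 held that core at -89, and Ddx4 held it at -187 with an E-box at -80. TCCCGC was present in 7 of the 9 windows, all but Rec114 and Dmc1, against 18.7% of the 33469 promoters of the table. CACGTG was present in 4 of 9 (Rec114, Sycp3, Ddx4 and Mael), against 6.42% of promoters, and no copy of one motif overlapped one of the other. Both motifs were thus found in genes with a signal and in genes without, and a match of letters does not show that a factor binds.

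All 9 windows held more CpG dinucleotides than the median promoter, which had 7. Rec114 had 11, Mael 22 and Sycp1 13, and Ddx4 and Smc1b, seen on no array, had 32 and 30, at the 90th percentile of all promoters (30) or above it. Sycp2 had 20, Sycp3 11, Dmc1 9 and Stag3 24. The ratio of observed to expected CpG was 0.752 for Rec114, 0.766 for Mael and 0.621 for Sycp1, against a median of 0.392 over all promoters and 0.916 for Ddx4. CpG content therefore did not separate the genes with a signal from those without. Methylation was not measured in this series, and the start site used in these lines is not known.

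Of the nearest genes with a probe around Rec114, Rhox5, Mael and Sycp1 given here, only Rnf113a1 beside Rhox5 was at least 2-fold higher in a line where its neighbor was raised. Nptn (neuroplastin), whose annotated end overlaps that of Rec114 on the opposite strand, showed 41280 in MSCs, against 19077 in COS1NR and 32102 in MFH1NR, a lower level in both lines (log2 ratios of -1.51 and -1.12). On the same side Cd276 had log2 ratios of -1.72 and -0.77, and on the other Hcn4 was at background throughout and Adpgk had -0.90 and -0.78. Around Rhox5 the related X-linked homeobox genes Rhox4g, Rhox9 and Rhox11 were not well above background on any array, and Rnf113a1 had log2 ratios of 1.26 in COS1NR and 1.22 in MFH1NR. Beside Mael, Cd247 was at background and Pogk and Tmco1 had log2 ratios in MFH1NR of 0.21 and 0.01, while Pou2f1 was at 1.31 in COS1NR and 0.68 in MFH1NR. Beside Sycp1, Tshb was at background and Tspan2 and Sike1 had log2 ratios in MFH1NR of 0.08 and 0.73.

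To see whether further germline genes behaved like these, 9 lists of 150 genes by function, the 10 genes included, were read from the same arrays. Of the 80 with a probe, 31 were well above background in MSCs, 26 in COS1NR, 33 in MFH1NR and 36 on no array, where the shares given above for all genes with a probe were 69.7%, 65.7% and 66.6%, and 75.2% were seen on at least 1 array. Of the 44 used, 11 were at least 2-fold higher in both lines and 4 at least 2-fold lower in both, where the shares over all genes used were 10.8% and 12.9%. The ratios of both lines share the MSC array. Without the 10 genes, 9 of 39 were higher in both and 4 lower in both. In MFH1NR 17 of these 39 were higher than in MSCs and 8 lower, against 19.0% and 21.2% of all genes used, and in COS1NR 13 were higher and 5 lower, against 20.0% and 19.4%. Of the 39, 6 were among the genes used only through MFH1NR and 3 only through COS1NR. Their median log2 ratio was 0.57 over the 31 with a ratio in COS1NR and 0.73 over the 36 in MFH1NR, against 0.11 and 0.02 over all genes used. These medians hold limits and partly different genes, and describe the list only. Some of the list genes also serve dividing somatic cells, and all 6 proliferation markers with a probe were at least 2-fold higher in both lines. The part of proliferation in these counts was not tested.

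**Figure D3:**
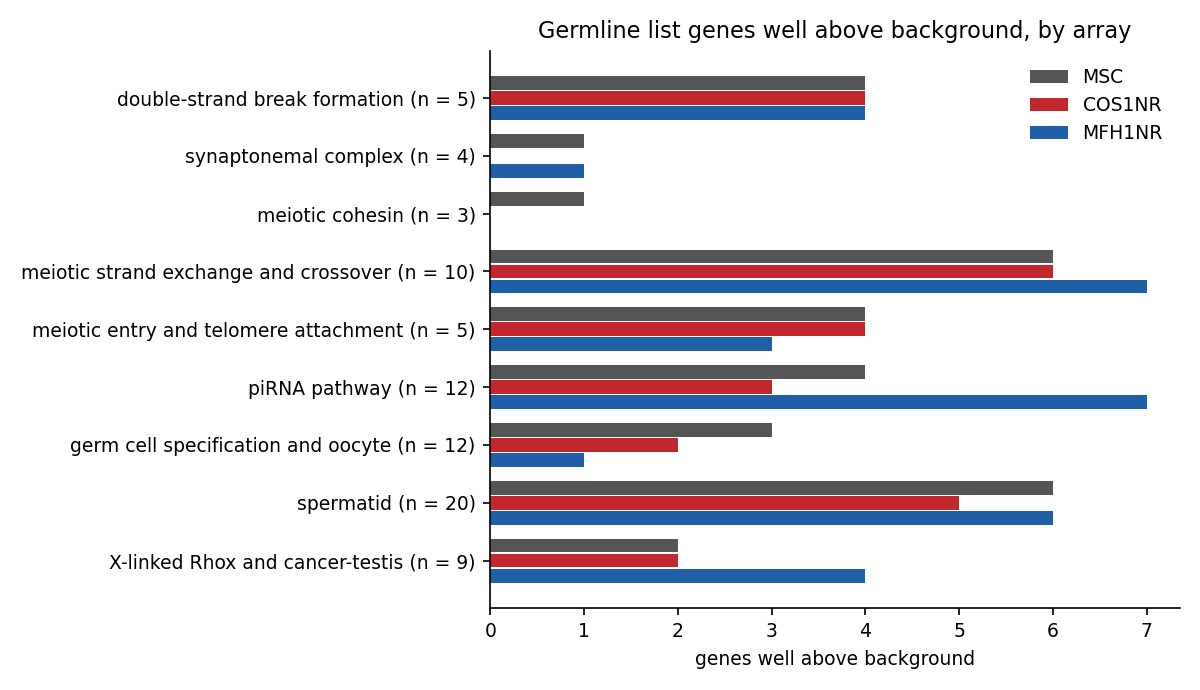
Number of genes well above background on the MSC, COS1NR and MFH1NR arrays in each of 9 germline lists, with the number of genes that have a probe in brackets. The piRNA list counts 4 in MSCs, 3 in COS1NR, 7 in MFH1NR, and the X-linked list 2, 2 and 4, while the other lists differ by at most 2 genes between arrays.

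Besides Rec114, which was chosen for its increase, 3 genes of the break-forming machinery were used, and Prdm9 and Trip13 were at least 2-fold higher in both lines, as were 10.8% of all genes used. Prdm9, the methyltransferase that marks recombination hotspots, showed 99.2 in MSCs, 531 in COS1NR and 610 in MFH1NR (log2 ratios of 2.03 and 1.87). Trip13, an ATPase that removes Hormad proteins from chromosome axes and also acts in the mitotic checkpoint, showed 142, 581 and 1714 (log2 ratios of 1.64 and 2.84). Hormad2 was past 2-fold in COS1NR only, with log2 ratios of 1.18 and 0.30, and Hormad1 was at background on every array.

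Of the strand exchange and crossover genes, 4 of 8 used were at least 2-fold higher in both lines, against the same 10.8% of all genes used. Psmc3ip (Hop2), a cofactor of Dmc1, showed 442 in MSCs, 5386 in COS1NR and 4270 in MFH1NR (log2 ratios of 3.21 and 2.52). Rad51c had log2 ratios of 3.21 and 3.38, Fignl1 of at least 3.18 and at least 5.07, and Msh5 of 1.46 and 1.02, a second and dimmer Msh5 probe being well above background in MFH1NR only. Psmc3ip, Rad51c and Fignl1 also serve DNA repair in dividing somatic cells. All 6 proliferation markers with a probe were at least 2-fold higher in both lines, with median log2 ratios of 2.56 in COS1NR and 2.54 in MFH1NR. The part of proliferation in the ratios of these genes was not tested.

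Other crossover genes appeared in one line and not the other. Meiob, a single-strand DNA binding protein of meiosis, showed 335 in COS1NR against 3.66 in MSCs and 8.86 in MFH1NR, which were at background, so that COS1NR exceeded MSCs by at least 14.2-fold. Ccnb1ip1 (Hei10), a crossover factor, showed the opposite, with 29.5 in MSCs, 7.00 in COS1NR, not well above background, and 2236 in MFH1NR, a 44.9-fold increase over MSCs (log2 ratio 5.49). Well above background in COS1NR and on neither other array were 3 of the 80 list genes (Meiob, Prm3 and Tssk2), where the share over all genes with a probe was 1.41%.

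In contrast to the meiotic cohesin genes, those of the general cohesin ring were well above background on all arrays. Smc1a, replaced by Smc1b in meiosis, showed 2398 in MSCs, 4904 in COS1NR and 6028 in MFH1NR (log2 ratios of 0.64 and 0.57). Rad21, the general kleisin, had log2 ratios of 1.85 and 1.14, Smc3 of 0.67 and 1.56, and Stag1 of 0.28 and 0.46. A second Stag1 probe gave -0.19 in either line, and the other Rad21 probes gave 0.78 and 0.92 in MFH1NR. Rec8, the meiotic kleisin, was at background throughout, with 4.81 in MSCs, 21.1 in COS1NR and 11.8 in MFH1NR. Syce3, a central element protein of the synaptonemal complex, went down from 70.9 in MSCs to background in both lines, by at least 3.17-fold for COS1NR and 3.98-fold for MFH1NR. Spdya, an activator of Cdk2 at telomeres, was also lower in both, with log2 ratios of -1.93 and -1.33.

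Mael was not the only piRNA pathway gene raised in MFH1NR. Of 12 genes with a probe, 7 were well above background in MFH1NR, against 4 in MSCs and 3 in COS1NR, where the shares over all genes with a probe were 66.6%, 69.7% and 65.7%. At least 2-fold higher than in MSCs were 6 in MFH1NR and 2 in COS1NR, where the shares over all genes used were 19.0% and 20.0%. Between the sarcomas, which shared a slide, 6 of these genes were at least 2-fold higher in MFH1NR and 0 lower, where the shares over all genes used were 11.7% and 14.2%. Of these 6, Mael, Asz1 and Fkbp6 were among the genes used only through their signal in MFH1NR, so the count is a description of the list.

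**Figure D4:**
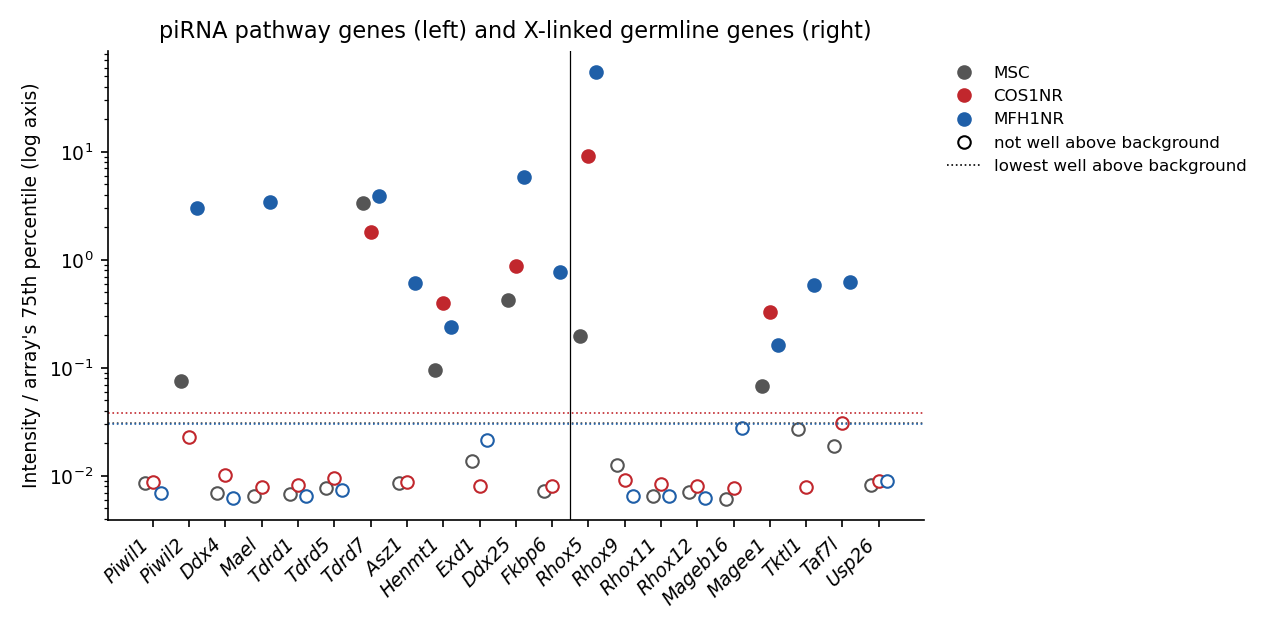
Intensity divided by the array's 75th percentile (log axis) of the genes of the piRNA list (left of the vertical line) and of the X-linked list (right) with a probe, on the MSC, COS1NR and MFH1NR arrays. Filled points are well above background and open points are not. Mael, Asz1, Fkbp6, Tktl1 and Taf7l are filled in MFH1NR only.

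Asz1, a mitochondrial scaffold of piRNA production, showed 5.01 in MSCs and 6.85 in COS1NR, both at background, and 603 in MFH1NR, at least 19.9-fold above MSCs. Fkbp6, a co-chaperone for the loading of piRNAs, showed 4.26 and 6.29, again at background, and 774 in MFH1NR, at least 25.5-fold above MSCs. Both were thus seen in MFH1NR alone, as Mael was. Piwil2 (Mili), an Argonaute protein that carries piRNAs, showed 44.1 in MSCs, 17.8 in COS1NR, not well above background, and 3010 in MFH1NR, a 40.4-fold increase over MSCs. Its second probe was not well above background on any array, with 27.0 in MFH1NR, so the probes disagree. Ddx25, an RNA helicase of spermatids, rose in both lines, with log2 ratios of 1.03 in COS1NR and 3.77 in MFH1NR, and Henmt1, which methylates piRNA ends, with 2.06 and 1.30. Tdrd7, which many cells express, had log2 ratios of -0.90 and 0.22. Piwil1, Ddx4, Tdrd1, Tdrd5 and Exd1 were at background on all arrays, so a part of the pathway gave no signal in MFH1NR.

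The genes of the X-linked list besides Rhox5 followed a similar division. Tktl1, a transketolase-like protein, showed 15.9 in MSCs and 6.14 in COS1NR, both at background, and 584 in MFH1NR, at least 19.2-fold above MSCs. Taf7l, a germ cell form of a TFIID subunit, showed 11.1 and 23.7, again at background, and 619 in MFH1NR, at least 20.4-fold above MSCs. Magee1 was higher in both lines, with 40.1 in MSCs, 254 in COS1NR and 161 in MFH1NR (log2 ratios of 2.27 and 1.25). Rhox9, Rhox11, Rhox12, Mageb16 and Usp26 were at background throughout. Over all lists, 8 of 80 genes were well above background in MFH1NR alone, Mael and Sycp1 among them, and 6 in MSCs alone, where the shares over all genes with a probe were 2.26% and 4.41%. In both sarcomas and not in MSCs there were 2 (Fignl1 and Acr), against 1.88% of all genes with a probe.

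Of 20 genes of the spermatid list with a probe, 5 to 6 were well above background on each array, against 65.7% to 69.7% of all genes with a probe. In MFH1NR alone there were 2 (Spag6 and H2bc1), against 2.26%. Crem was lower in both lines, with 1276 in MSCs, against 374 in COS1NR and 1000 in MFH1NR (log2 ratios of -2.16 and -1.11), but its other probes gave -0.22 and -0.51 in MFH1NR. Ldhc, the testis lactate dehydrogenase, went from 59.5 in MSCs to background in both lines, a drop of at least 2.66-fold for COS1NR and 3.34-fold for MFH1NR. H1f6, the testis linker histone, was at least 1.91-fold and 2.40-fold lower, while the testis histone H2bc1 was at 77.5 in MFH1NR and Spag6, a protein of the sperm tail, was there at least 1.48-fold above MSCs. Of 12 genes of specification and the oocyte with a probe, 9 were at background on all arrays, among them Dazl, Nanos3, Pou5f1 and Kit, and 3 were seen on at least 1 array, against 75.2% of all genes with a probe.

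The arrays were also read for markers of cells that carry these genes in the body. In bulk RNA, fewer cells of a type and less RNA per cell cannot be told apart. Of 8 germ cell markers, 2 were well above background in MSCs (Piwil2 and Dppa3), 0 in COS1NR and 2 in MFH1NR (Mael and Piwil2). The shares over all genes with a probe were 69.7%, 65.7% and 66.6%. Dppa3 stood at 21.8 in MSCs, close to the lowest intensity with the call, and its second probe was at background on every array. Ddx4, Dazl, Nanos3, Tdrd1 and Pou5f1 were at background on all arrays. The summed scaled intensity of the 8 germ cell markers was 0.155 in MSCs and 0.0823 in COS1NR, against 6.48 in MFH1NR. There Mael and the brighter Piwil2 probe were the only ones with a signal. Such a sum is set by the brightest probes, Mael alone giving 3.41, and does not compare genes. Of 7 Sertoli cell markers with a probe, Rhox5 among them, 4 (57.1%) were well above background on each array, against the same 69.7%, 65.7% and 66.6%. Amh, the anti-Müllerian hormone, had log2 ratios of -0.83 in COS1NR and -1.40 in MFH1NR, Wt1 of 0.53 and 2.36 by one probe and no signal by another, and the receptor Fshr was at background throughout. Gata4 was seen in COS1NR alone, at 277 (at least 11.7-fold above MSCs), and Inha, an inhibin subunit, showed 182 in MSCs and 408 in MFH1NR but was at background in COS1NR (at least 8.13-fold below MSCs).

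Markers of other cell types also differed between the MSC array and those of the sarcomas. All 7 macrophage markers were well above background in MSCs and at least 2-fold lower in both lines, against 69.7% of all genes with a probe and 12.9% of those used, with a summed scaled intensity of 83.9 against 8.87 and 4.21, and their part in the ratios above was not tested. The MSC markers were well above background in 4 of 4 in MSCs, and Thy1 in COS1NR and Eng in both lines were not. Of 5 osteoblast markers with a probe, 4 were well above background in MSCs, 4 in COS1NR and 5 in MFH1NR. Between the sarcomas, 3 of them were at least 2-fold higher in MFH1NR (Sp7, Alpl and Spp1) and 1 lower (Ibsp), against 11.7% and 14.2% of all genes used, and Sp7 was the one not seen in the osteosarcoma line. All 5 fibroblast markers were well above background in MSCs, and 3 were at least 2-fold lower in both lines, with a summed scaled intensity of 985 against 129 and 258. By their other probes, Col1a1 and Col1a2 were lower by as much in both lines too, so that the probes disagree. Where a gene had a pair of probes, their log2 ratios to MSCs lay a median of 0.28 apart for COS1NR and 0.31 apart for MFH1NR. Each of the 10 genes had 1 probe and 1 spot, so this check could not be made for them, and whether a probe also binds a related transcript was not tested.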

How the data were processed

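RNA of MSCs, COS1NR and MFH1NR was hybridized to 1 Agilent array each, and samples were grouped by the cell type in their labels. Per the file headers, the authors made the processed intensity with Agilent Feature Extraction 10.5.1.1 (9.1 in the submitters' processing notes), which subtracts background and detrends within an array without scaling between arrays. The deposited series table held the same intensities on 3 of 3 arrays. Each array had 43379 spots that are not controls, of which 25899 in MSCs, 24551 in COS1NR and 25246 in MFH1NR were well above background and 0 saturated. The number of arrays limits the precision.

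Here, spots flagged as outliers were dropped, spots of a probe were averaged in log2, and each array was scaled to its 75th percentile. RefSeq accessions gave 16745 probes a gene name, and 2827 genes had several probes, of which that with the highest mean was used. At least 2-fold counted as different, and a limit counted where it passed 2-fold itself. No test was made. The genes and lists were chosen with earlier results of these data known. Named from the lists were genes changed alike in both lines or seen in 1 cell type only, up to 4 per list. Piwil2, Ccnb1ip1, Tdrd7, Hormad1, Hormad2, Prm3, Acr, Spag6, Gata4, Inha, the osteoblast markers, the list genes described as at background and Tfap2c were named after their values had been seen. The counting was tested on simulated data. Python 3.11.15 with numpy 2.4.6 and pandas 2.3.3, and R 4.3.3 with limma 3.58.1 for the normexp alternative, were used. Alternatives were other scalings, the series table, other probe rules, other filters on dim probes, normexp and a 3-fold threshold. A few genes of the lists and neighbors are not reported here.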

Additional observations from a re-analysis of the deposited data

Results flagged for a closer look

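Tfap2c, a transcription factor of germ cell specification, moved in opposite directions in the sarcoma lines. Its intensity was 95.0 in MSCs, against 1712 in COS1NR and 6.41 in MFH1NR, where it was not well above background. COS1NR was 13.7-fold higher than MSCs (log2 ratio 3.78), and MFH1NR at least 5.33-fold lower (log2 ratio of -2.41 or below), so that the log2 ratio of MFH1NR to COS1NR was -6.19 or below. With 1 array per line this difference was not tested.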

How the results depend on the processing

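No paired analysis was possible because each cell type had 1 array. Over the alternatives that give a ratio, which the 3-fold threshold does not, the log2 ratio of Rec114 to MSCs ranged from 6.53 to 7.84 in COS1NR and from 6.64 to 8.30 in MFH1NR, and that of Rhox5 from 4.99 to 5.92 and from 7.63 to 8.86. That of MFH1NR to COS1NR ranged from 0.09 to 0.89 for Rec114 and from 2.58 to 3.38 for Rhox5, the median of all genes used moving from -0.09 to 0.71 with scaling by 7 spike-in probes. Without scaling, the median of all genes used was 0.52 in COS1NR and 0.79 in MFH1NR. In MFH1NR the limit for Mael over MSCs ranged from 5.03 to 9.04 and that for Sycp1 from 1.19 to 4.63, with no value where all arrays had to be well above background, and over COS1NR from 5.36 to 8.77 and from 1.52 to 4.54, the highest values being measured ratios with no filter. None of these ratios changed sign. The genes of the 10 at least 2-fold higher in MFH1NR became 2 where all arrays had to be well above background, since Mael and Sycp1 then drop out. With no filter, Stag3 passed 2-fold downward as the 1 gene of the 10 in COS1NR and the 1 in MFH1NR, from sarcoma intensities at background, and the genes higher in MFH1NR became 5 with Dmc1 (log2 ratio 1.18). Germline list genes higher in both lines became 7 with normexp and 7 at 3-fold. Those lower in both became 1 without scaling, 2 with spike-in scaling, 2 where all arrays had to be well above background, 9 with no filter and 1 at 3-fold. All other counts stayed within 1.5 times. Genes near background, such as Sycp1 and Stag3, are limited by the signal over background.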

Other observations

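Genes of the repressors that keep germline genes off in somatic cells were also read. Of 12 with a probe, 11 were well above background on at least 1 array, and 5 were at least 2-fold higher in both lines than in MSCs, where the shares over all genes were 75.2% of those with a probe and 10.8% of those used. Hells, a chromatin remodeler needed for DNA methylation, showed 112 in MSCs, 819 in COS1NR and 1790 in MFH1NR (log2 ratios of 2.48 and 3.25). The maintenance methyltransferase Dnmt1 showed 477, 1279 and 2534 (log2 ratios of 1.03 and 1.65), and its second probe gave 1.06 and 1.69. Zfp57, a zinc finger protein of imprinted regions, had log2 ratios of 1.62 and 2.10, and Cbx3, a heterochromatin protein, of 1.11 and 1.53. Of the E2F6 and MGA/MAX complex itself, E2f6 had log2 ratios of 0.85 and 0.39, Pcgf6 of 0.81 and 0.87, L3mbtl2 of 1.10 and 0.89, Ring1 of 0.58 and 0.34, and Max of -0.46 and -1.28, the last being the only one of the 11 at least 2-fold lower in a line. Apart from Max, none of the ratios that could be given was below 0 in either line. Mga was not analysed here. The 6 proliferation markers rose as well, with medians of 2.56 and 2.54, and their part in these ratios was not tested. Protein and methylation were not measured.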
